A study of Mus musculus with 3 samples.

Results

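Krt8, Krt18, Krt19, Krt20, Lama3, Lamb3 and Gprc5a were followed through the epithelium of the mouse small intestine, as 7 of the 31053 genes counted. They comprise 4 keratin genes, the genes of 2 of the chains of laminin-332 and a receptor gene of the villus tip. They were picked by symbol, with their levels across cell classes, villus zones and segments already seen in these data, so those levels are given as a description and without a test. Single cells were taken from wild-type (WT) mice, 12-week-old males of the C57BL/6N strain, and cells of 3 mice were pooled. There was 1 library per segment (duodenum, jejunum, ileum), without a transgene or a treatment, so that a segment and its library cannot be told apart and segments have no replicate. Cells had been shaken off the tissue in a chelating buffer and sorted as live single cells, and the libraries therefore hold epithelium and immune cells. Genes that define fibroblasts were near 0, as Col1a1 had 6 UMIs and Dcn 20 UMIs in all epithelial classes together.

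A UMI marks 1 captured RNA molecule, and levels are given per 10000 UMIs, counted over all cells of a group added up. Where 3 values of a gene follow each other, they stand in the order duodenum, jejunum, ileum. Reads came from the 3′ end of the RNA, so levels of different genes were compared without correction for length. Of 27235 barcodes, 16686 were kept, that is 4255, 4360 and 8071 per library. Kept cells held a median of 12424, 11737 and 5536 UMIs in this order. The median mitochondrial share was 27.1%, 27.2% and 11.1%. Between 4 and 12 barcodes of kept cells were shared by any pair of libraries. Clusters were named from marker genes as enterocytes (10711 cells), early enterocytes (1039), goblet cells (748), tuft cells (301), proliferating cells with stem cells (ISC/proliferating, 226), enteroendocrine cells (EECs, 170) and Paneth cells (25). A further 1955 cells stayed unnamed. T cells (757) should lack all 7 genes, and their level is called background below. It is a rough guide, as T cells held a median of 4528 UMIs against 17930.5 in ISC/proliferating cells. In the duodenum, Krt20 was at 6.14 in T cells but at 0.507 in ISC/proliferating cells. The T cell level can therefore exceed the stray RNA of other classes, and a level below it does not show absence. None of the 7 genes was used to cluster the cells or to rank them along the villus.

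Keratins build the intermediate filaments of epithelial cells. A filament needs a type II keratin paired with a type I keratin, and in simple epithelia of the gut Krt8 is the main type II partner, while Krt18, Krt19 and Krt20 are type I partners. Laminin-332 is a trimeric protein with chains encoded by Lama3 and Lamb3, is secreted to the basement membrane, and is bound there by integrins that reach the keratin network through plectin. Gprc5a encodes an orphan receptor with 7 passes of the membrane that was first known as a gene induced by retinoic acid. Enterocytes are born in the crypt, move up the villus for a few days and are shed at its tip.

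On GRCm38, Krt8 (ENSMUSG00000049382) lies on chromosome 15 from 101996698 to 102004482 on the minus strand, and Krt18 (ENSMUSG00000023043) from 102028180 to 102032027 on the plus strand of the same chromosome, 23698 bases away. Krt19 (ENSMUSG00000020911) lies on chromosome 11 from 100140810 to 100148665 and Krt20 (ENSMUSG00000035775) on the same chromosome from 99428403 to 99438150, both on the minus strand. Krt8 overlaps the annotated Gm36026. All 4 are protein-coding, and the spans are those of GENCODE M21. The annotation holds a processed pseudogene of Krt8 on chromosome 7 that was not counted in the files, so reads shared with it may have gone to Krt8 or been dropped. RefSeq promoter records of GRCm38.p6 were found for 4 of the 7 genes (Krt8, Krt18, Krt20 and Lamb3). Lamb3 had 2 records, and only the first was searched, which lies inside the GENCODE span of Lamb3. The start used for Krt8 likewise lies inside the GENCODE span of Krt8, as does part of the stretch searched before it. In the 250 bases before each start, 5 motifs were searched on both strands. These were TATAAA (the core promoter box), AGATAA (read by GATA factors), CCACCC (read by Krüppel-like factors), TGANTCA (read by AP-1) and ATGCAAAT (the octamer read by POU factors). The windows below are shown because they hold matches of Krt8, Krt20 and Lamb3, which were all higher at the villus tip than at the bottom in every library, with the motif in capitals and, where it lies on the opposite strand, as its reverse complement.
Krt20, TATAAA, 29 bases before the start, chr11:99438165-99438194, minus strand: tctcttgaactcTATAAAaggtcatctcca
Krt20, AGATAA, 223 bases before the start, chr11:99438359-99438388, minus strand: tcgtcctttttgTTATCTctgtttattaaa
Krt8, AGATAA, 239 bases before the start, chr15:102004563-102004592, minus strand: aggagggcaggAGATAAgacagcttaggtc
Krt20, CCACCC, 187 bases before the start, chr11:99438323-99438352, minus strand: cctccactcccaCCACCCccacaggaaagc
Krt8, CCACCC, 160 bases before the start, chr15:102004485-102004514, minus strand: cctggatttttaGGGTGGggctggagaggg
Lamb3, CCACCC, 58 bases before the start, chr1:193301924-193301953, plus strand: gtcctgtcctgaGGGTGGgggtgcagtgac
A TATAAA was present in 12.4% of the 32851 promoters searched, an AGATAA in 9.99% and a CCACCC in 28.1%. TGANTCA (6.75% of promoters) and ATGCAAAT (1.60%) were not found in these 4 windows of 250 bases, and the Krt18 window held none of the 5 motifs. A further CCACCC of Krt8, 137 bases before the start and inside the GENCODE span of Krt8, is not shown. These matches describe letters only, and no binding was measured.

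Krt8 was the most evenly spread of the 7 genes. Its level in enterocytes was 18.8, 41.0 and 49.1. In tuft cells, the chemosensory cells of the epithelium, it was 99.3, 98.5 and 104 in the same order, above every other class in every library. Goblet cells, which secrete mucus, held 28.3, 44.2 and 56 and lay above enterocytes in all 3 libraries. ISC/proliferating cells (20.4, 25.2 and 35.9) lay above enterocytes in the duodenum and below them in the jejunum and the ileum. EECs, which secrete hormones (18.5, 21.8 and 34.2), lay near enterocytes in the duodenum and below them in the jejunum and the ileum. T cells held 6.35, 4.95 and 9.14, so the Krt8 level of every class named here except Paneth cells was above this background. The mean log2 ratio over enterocytes was 1.59 ± 0.71 for tuft cells and 0.30 ± 0.26 for goblet cells (SD, n = 3 libraries), and the latter was 0.027 when mitochondrial UMIs were left out of the totals.

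Krt18 was higher in tuft cells, goblet cells, EECs and ISC/proliferating cells than in enterocytes in every library. In tuft cells, its level was 125, 163 and 192. Goblet cells held 10.8, 18.7 and 23.2. EECs held 6.66, 6.43 and 10.3, and ISC/proliferating cells 3.57, 5.13 and 8.31. Early enterocytes ranged from 0.484 to 2.65 over libraries, and the 12 Paneth cells of the ileum held 2.92. Enterocytes held 0.452, 0.993 and 0.933, while T cells held 0.0706, 0.858 and 0.475. In the jejunum the enterocyte level thus lay inside the 95% interval of the T cells (0.610 to 1.17, exact Poisson, counting error only), which makes Krt18 in jejunal enterocytes as a whole no higher than this background. The mean log2 ratio over enterocytes was 7.72 ± 0.38 for tuft cells, 4.48 ± 0.22 for goblet cells, 3.35 ± 0.60 for EECs and 2.84 ± 0.41 for ISC/proliferating cells (SD, n = 3). The libraries of tuft, goblet and enteroendocrine cells had ranges that did not overlap. Those of EECs and ISC/proliferating cells did overlap, although EECs were higher than ISC/proliferating cells within each library.

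**Figure D1:**
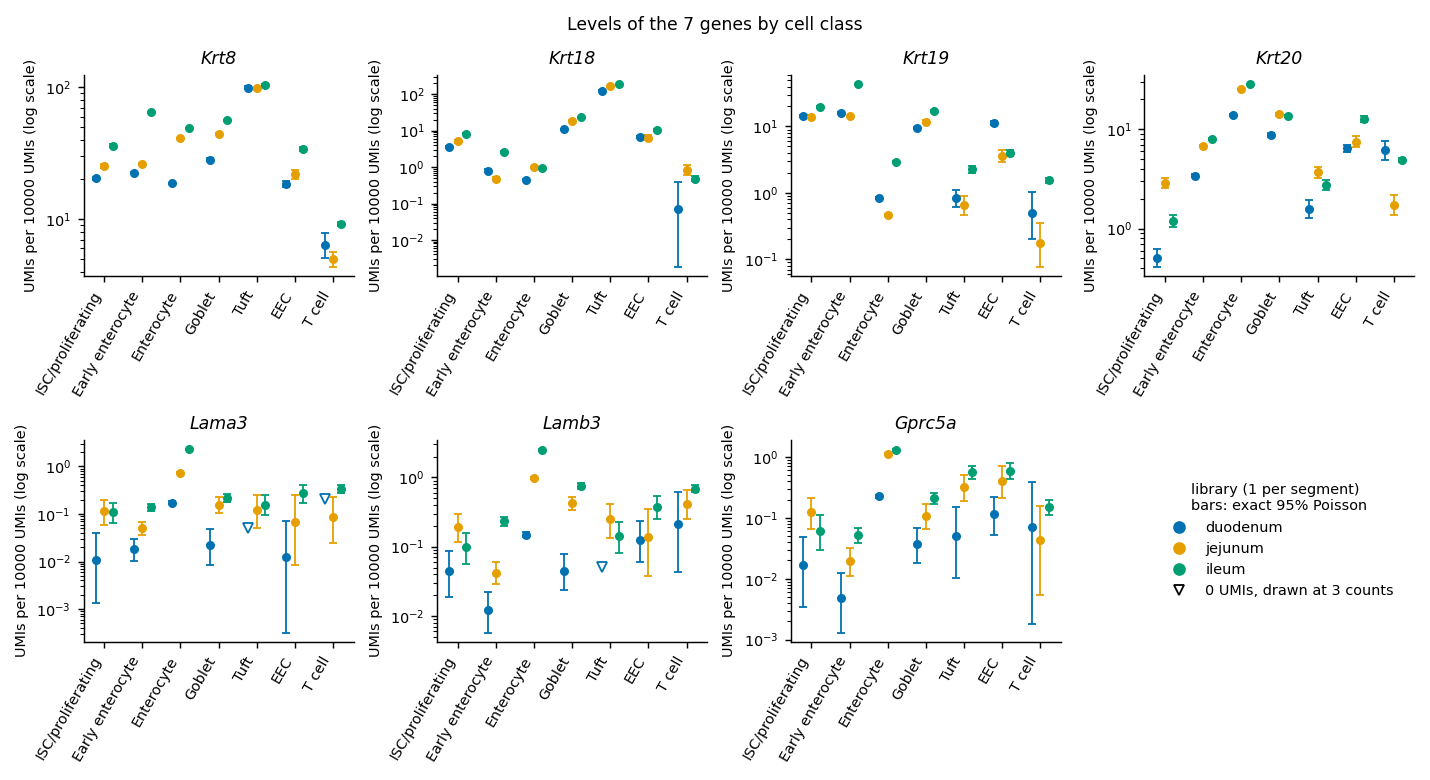
Level of each of the 7 genes (UMIs per 10000 UMIs, log scale) by cell class, with 1 point per library and exact 95% Poisson intervals; open triangles mark 0 UMIs and are drawn at 3 counts. Krt18 reaches 125 to 192 in tuft cells against at most 0.993 in enterocytes, and Lama3 and Lamb3 are highest in enterocytes of the ileum.

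Because Krt18 and Krt8 differed so much between classes, the number of Krt18 UMIs per Krt8 UMI was computed. It was 0.0241, 0.0242 and 0.0190 in enterocytes of the duodenum, jejunum and ileum. Goblet cells gave 0.381, 0.423 and 0.415, and EECs 0.361, 0.295 and 0.301. Among the classes compared here, tuft cells alone exceeded 1 Krt18 UMI per Krt8 UMI, with 1.26, 1.66 and 1.84. The spread over segments within goblet cells was small beside the distance to enterocytes. Both genes were read from their 3′ ends, and how well each is captured was not measured.

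**Figure D2:**
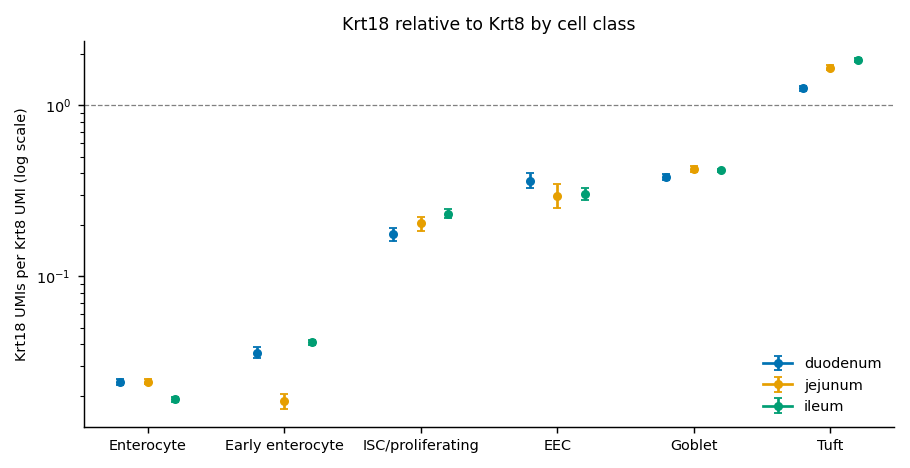
Krt18 UMIs per Krt8 UMI (log scale) in 6 epithelial classes, with 1 point per library and 95% intervals for counting error; the dashed line marks 1. Tuft cells lie between 1.26 and 1.84, goblet cells between 0.381 and 0.423 and enterocytes between 0.0190 and 0.0242.

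Among the named classes, Krt19 was highest in early enterocytes and next highest in ISC/proliferating cells in every library, while Paneth cells of the ileum held 1.63. Early enterocytes held 16.0, 14.3 and 43.7, ISC/proliferating cells 14.4, 13.9 and 19.8, and goblet cells 9.52, 11.9 and 17.1. Enterocytes held 0.845, 0.468 and 2.96. T cells held 0.494, 0.176 and 1.54, close below the enterocytes. Tuft cells held 0.829, 0.654 and 2.27 and could not be set apart from enterocytes, as the mean log2 ratio was 0.02 ± 0.44 (SD, n = 3). In EECs the 3 libraries were far apart, at 11.1, 3.61 and 4.03.

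Krt20, a keratin of differentiated intestinal and gastric cells, had another order. Its level was highest in enterocytes, with 14.0, 25.6 and 28.6 in the duodenum, jejunum and ileum. Goblet cells held 8.79, 14.1 and 13.7 and EECs 6.41, 7.52 and 12.7. In ISC/proliferating cells the level was 0.507, 2.88 and 1.19, and in tuft cells 1.59, 3.68 and 2.76. T cells held 6.14, 1.74 and 4.90, so in the duodenum and the ileum the levels of tuft cells and of ISC/proliferating cells were below this background and are not read as expression. The duodenal EEC level lay inside the 95% interval of the T cells there (4.92 to 7.58) and was likewise not above background. The 23 T cells of the duodenum carried 87 Krt20 UMIs.

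Cells were next ordered along the villus. Enterocytes and early enterocytes of each library were ranked by 9 landmark genes of the tip minus 8 of the bottom and divided into 5 zones of equal size, from zone 1 (bottom) to zone 5 (tip). Early enterocytes fell almost entirely into zone 1, with 349, 280 and 396 cells there. The cut points are not natural borders, as between 166 and 319 cells of a library lay within 0.1 of the score that divides zones 4 and 5. Tip cells were also shallower, with a median of 8621, 11423 and 7582 UMIs in the duodenum, jejunum and ileum against 17870, 17788 and 12764.5 in zone 1. The summed level of immediate early and heat shock genes, which respond to handling, went from 20.8 to 37.7, from 23.6 to 47.1 and from 32.3 to 44.7 between zones 1 and 5, and its part in the results below was not tested. Summed goblet cell markers went from 3.43 to 6.06 in the duodenum, from 4.06 to 4.49 in the jejunum and from 15.4 to 14.9 for the ileum between zones 1 and 5, and their part in the Krt18 values below was not tested. Summed T cell markers stayed at or below 1.27 in every zone, and the fibroblast markers at or below 0.0105.

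Krt20 was higher in each zone than in the one before it in every library. The level went from 4.29 in zone 1 to 35.7 in zone 5, from 7.46 to 44.2 and from 8.52 to 43.9. The duodenal zone 1 level was below the 6.14 of T cells there. Tip over bottom, the mean log2 ratio was 2.66 ± 0.36 (SD, n = 3 libraries). Krt8 had a shallower slope, with 17.1, 20.7 and 53.5 at the bottom and 46.0, 73.6 and 63.3 at the tip. It was lower in zone 2 than in zone 1 in the duodenum (9.88) and in the ileum (34.5) before it reached its highest level at the tip. Its log2 ratio of tip over bottom was 1.42, 1.83 and 0.24. Thinned to 800 UMIs per cell, 78.5% of zone 1 cells and 96.0% of zone 5 cells held a Krt8 UMI (99.3% and 99.9% without thinning), against 24.0% of T cells. For Krt20 the shares were 39.9%, 93.2% and 10.3% (95.2%, 99.96% and 31.4% without thinning). Median depth was 16458 UMIs in zone 1, 8897 in zone 5 and 4528 in T cells.

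Krt19 was concentrated in zone 1. There its level was 10.1, 8.38 and 33.2. By zone 2 it was 1.06, 0.347 and 3.74, and at the tip 0.589, 0.441 and 0.931. The log2 ratio of tip over bottom was -4.11, -4.25 and -5.16. In thinned cells, 46.5% of zone 1 and 5.49% of zone 5 held a Krt19 UMI (82.8% and 32.8% without thinning), against 7.66% of T cells. Most T cells were ileal, and by library the tip level was below that of T cells in the ileum only, where it was 0.931 against 1.54. Krt18 was low throughout, at 0.538, 0.351 and 1.98 in zone 1 and 1.44, 2.40 and 1.43 in zone 5, and its zone 1 level in the jejunum was below the 0.858 of T cells. Its log2 ratio of tip over bottom was 1.42, 2.77 and, with the sign turned in the ileum, -0.47. Relative to the median gene, which itself lay 0.81 lower at the ileal tip on the log2 scale, the ileal ratio turned to 0.33.

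**Figure D3:**
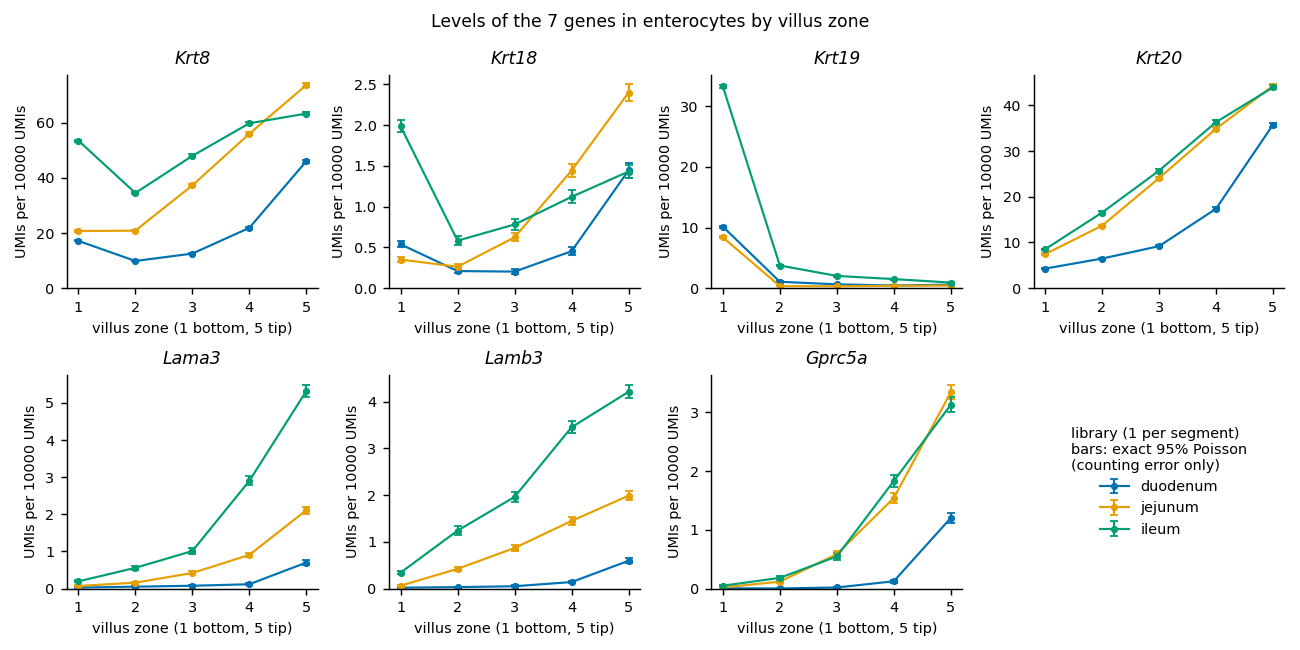
Level of each of the 7 genes (UMIs per 10000 UMIs) in 5 villus zones, with 1 line per library and exact 95% Poisson intervals. Krt20, Lama3, Lamb3 and Gprc5a are highest in zone 5 in all 3 libraries, whereas Krt19 is highest in zone 1.

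Taken as a share of all UMIs of Krt18, Krt19 and Krt20, the type I partners changed places within the villus. Krt19 made up 67.7%, 51.8% and 76.0% in zone 1. By zone 2 its share was 13.7%, 2.43% and 17.9%. Krt20 made up 94.6%, 94.0% and 94.9% at the tip. Type I UMIs per Krt8 UMI varied far less, from 0.873, 0.782 and 0.818 in zone 1 to 0.821, 0.640 and 0.731 in zone 5. Goblet cells used all 3, with 37.1% to 43.0% Krt18, 26.6% to 32.7% Krt19 and 25.4% to 31.6% Krt20 across libraries. Tuft cells were at 97.4% to 98.1% Krt18.

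**Figure D4:**
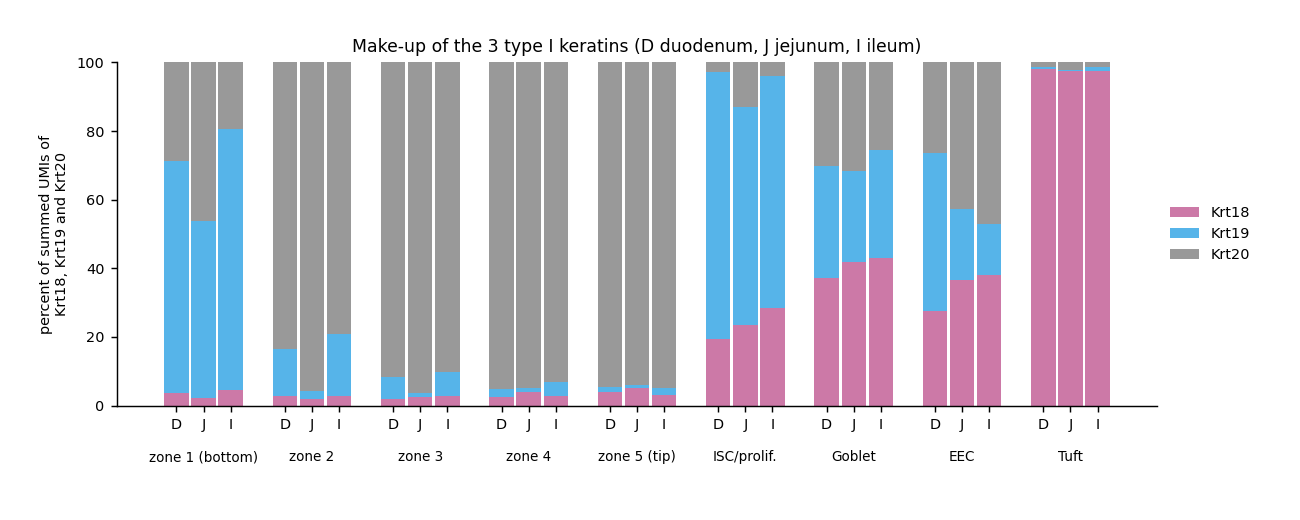
Share of Krt18, Krt19 and Krt20 in their summed UMIs (percent, stacked bars) for the 5 villus zones and 4 other classes, with 1 bar per library (D duodenum, J jejunum, I ileum). Krt19 holds 51.8% to 76.0% at the villus bottom, Krt20 94.0% to 94.9% at the tip, and Krt18 97.4% to 98.1% in tuft cells.

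Lama3 and Lamb3 were enterocyte genes here. Lama3 (ENSMUSG00000024421) lies on chromosome 18 of GRCm38 from 12333819 to 12583013 and Lamb3 (ENSMUSG00000026639) on chromosome 1 from 193207699 to 193343878, both on the plus strand. The annotated span of Lamb3 overlaps other genes, among them Hsd11b1 and G0s2, so reads in the shared part are uncertain. In enterocytes, Lama3 reached 0.174, 0.742 and 2.28, and Lamb3 0.148, 0.989 and 2.51. In no library did ISC/proliferating cells, early enterocytes, goblet cells, tuft cells or EECs exceed 0.270 for Lama3. T cells held 0, 0.0880 and 0.335 for Lama3 and 0.212, 0.418 and 0.689 for Lamb3. The 0 stands for 141634 UMIs of 23 cells, which allows a level of up to 0.212. In the ileum, therefore, Lama3 of the other epithelial classes was not above background. In the duodenum neither was Lamb3 of enterocytes as a whole, nor was their Lama3 above the 0.212 that 0 UMIs allow. Goblet cells of the ileum held 0.756 for Lamb3, close to the 0.689 of T cells.

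Along the villus, both chains were highest at the tip. Lama3 went from 0.0270 to 0.700, from 0.0698 to 2.11 and from 0.193 to 5.32. This amounted to 25.9-fold, 30.2-fold and 27.5-fold. Lamb3 went from 0.0177 to 0.594, from 0.0611 to 1.99 and from 0.340 to 4.21, or 33.4-fold, 32.5-fold and 12.4-fold. For both chains the bottom level was not above that of T cells in any library (for Lama3 in the duodenum, not above the 0.212 that 0 UMIs allow), so these folds rest on bottom levels within background. The duodenal T cell level of Lamb3, also 0.212, was that of 3 counts. The duodenal tip level of 0.594 lay inside its 95% interval and was thus not above background either. Thinned to 800 UMIs, 1.36% of zone 1 and 19.0% of zone 5 cells held a Lama3 UMI (13.5% and 66.5% without thinning), against 1.59% of T cells. For Lamb3 these shares were 1.32%, 17.0% and 5.02%, and 14.0%, 66.5% and 23.0% without thinning.

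Gprc5a (ENSMUSG00000046733; chromosome 6 of GRCm38, 135065651 to 135084709, plus strand) had the largest ratio of tip over bottom of the 7 genes in every library. Its level at the tip was 1.2, 3.34 and 3.13. At the bottom it was 0.00426, 0.0182 and 0.0481, from only 6, 25 and 66 UMIs, against 0.0706, 0.0440 and 0.149 in T cells, so these ratios too rest on bottom levels that were not above background. The log2 ratio was 8.14 (95% interval 7.01 to 9.59), 7.52 (6.96 to 8.15) and 6.02 (5.67 to 6.40), with intervals for counting error only. In thinned cells the share with a UMI was 0.128% in zone 1 and 18.1% in zone 5 (2.89% and 70.4% without thinning), against 0.925% of T cells. Outside enterocytes, EECs held up to 0.592 and tuft cells up to 0.562, both in the ileum, above the 0.149 of T cells there.

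Segments differed in the same direction for most of the 7 genes, with 1 library each and hence no test. Relative to the duodenum, all enterocytes of the ileum held 2.62 times as much Krt8, 2.04 times as much Krt20, 13.1 times as much Lama3, 17.0 times as much Lamb3 and 5.79 times as much Gprc5a. In the jejunum these ratios were 2.19, 1.83, 4.27, 6.69 and 4.99. At the tip alone, the ileal ratio was 7.60 for Lama3 and 7.09 for Lamb3, but 1.38 for Krt8 and 1.23 for Krt20. For all enterocytes, the duodenal levels of Lama3, Lamb3 and Gprc5a in these ratios lay within the counting error of the few T cells there. At the tip the same held for Lamb3. Krt19 was at 0.554 of the duodenal level in enterocytes of the jejunum and at 3.51 times that level in the ileum. In tuft cells, Krt8 differed little, with 0.992 (95% interval 0.956 to 1.03) for the jejunum and 1.05 (1.02 to 1.09) for the ileum, whereas Krt18 gave 1.31 and 1.54. The ileal library also had fewer UMIs per cell and a lower mitochondrial share, and the part of these in the ratios was not tested.

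The levels of the laminin chains and Gprc5a were also read by enterocyte cluster, pooled over libraries. A cluster of 610 cells led by Marcksl1, Sprr1a and Tgm2, which was singled out after its values were seen, held 4.35 Lama3, 4.71 Lamb3 and 2.84 Gprc5a UMIs per 10000. The cluster of 2244 cells led by the tip landmarks Nt5e, Slc28a2 and Ada held 2.86, 2.35 and 2.89. Of the 610 cells, 467 came from the ileum and 14 from the duodenum, and 226 and 169 of the ileal ones fell into zones 4 and 5. The other cluster held 534, 828 and 882 cells of the duodenum, jejunum and ileum, so the clusters differed in segment make-up, and its part in these pooled levels was not tested. Without the 610 cells, the mean log2 ratio of tip over bottom was 4.81 for Lama3, 4.51 for Lamb3 and 7.24 for Gprc5a. A cluster of 31 unnamed cells led by Gp2 and Ccl20 held 2.47 Lama3 and 4.21 Lamb3 but 0.241 Gprc5a, and an unnamed cluster of 898 cells led by Gm26917 and Fgf15 held 21.8 Krt19. All these cells were clustered on other genes of the same profiles, so the values are a description.

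To see whether single tip cells held several of these transcripts, zone 5 cells were thinned to 5000 UMIs, which left out 115, 38 and 134 shallower cells. Among duodenal cells with a Lamb3 UMI, 32.1% also held Lama3, against 18.7% of those without. In the jejunum the shares were 56.9% and 48.5%, and in the ileum 85.8% and 79.0%. Gprc5a was found in 58.3% of duodenal cells with a Lama3 UMI and in 27.9% of those without. The jejunum gave 74.7% and 61.3%, and the ileum 72.7% and 54.2%. Without thinning, Lama3 was held by 33.4%, 72.9% and 92.0% of these cells and Gprc5a by 47.4%, 87.0% and 84.4%. With and without a Lamb3 UMI, the thinned share holding Gprc5a was 47.4% and 30.8%, 71.0% and 65.1%, and 70.5% and 66.9%. In every library the second gene was thus more frequent in cells with the first than in cells without it. Some of these gaps were small, none was tested, and position within zone 5 was not held constant.

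Across 34 sums of cells by library and class or zone, the pattern of Lama3 was, among the 7 genes, most like that of Lamb3 (Pearson r = 0.96), as a description over sums that share libraries and cells. Lama3 with Gprc5a gave 0.90, and Krt19 with Krt20 gave -0.42. Among 2402 genes with a level of at least 1 in some group of every library, Krt20 was most like Plec (0.94), Eps8 (0.94) and Stk25 (0.93). Krt18 was most like Atp2a3 (0.93) and Dpysl2 (0.93). Krt19 was most like Gmds (0.93), Srp9 (0.90) and Manf (0.89), and Krt8 like Dusp11 (0.86), S100a11 (0.86) and Dsg2 (0.84). For Lamb3 these were Pmp22 (0.96), Klf6 (0.93) and 2010109I03Rik (0.93), and for Lama3 2010109I03Rik, Clca4a and Pmp22 (each 0.93). Gprc5a was most like Nt5e (0.94), itself a tip landmark of the zone score, then Clca4a (0.94) and Asap1 (0.92).

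Other genes of the same structures were then counted between tip and bottom with edgeR's quasi-likelihood test on summed UMIs, at a Benjamini-Hochberg adjusted p under 0.05. Over all 11100 genes tested, 34.0% were called higher and 37.0% lower at the tip, with a median log2 fold change of -0.08. Zones were cut from the same UMIs, so these calls describe the zones. Without TMM normalization the median was -0.65 and the share of higher calls among all calls changed from 47.9% to 26.6%. Of 45 other keratin genes 5 could be tested, with 2 higher and 2 lower (median log2 fold change 0.32). Krt12 (log2 fold change 4.62 ± 0.33, SE) and Krt23 (2.46 ± 0.42) were higher at the tip, and Krt7 (-2.0 ± 0.47) and Krt222 (-2.25 ± 0.68) were lower. Krt7 turned to 0.053 when libraries were merged without integration. Krt10 gave 0.32 with an adjusted p of 0.17 in edgeR, and -0.26 without TMM. Even so, Krt12 was rare, at 0.136, 0.257 and 0.162 UMIs per 10000 at the tip of the duodenum, jejunum and ileum. Krt23 was rarer, with 10, 6 and 35 UMIs in zone 1 and 8, 15 and 102 in zone 5. Its 95% intervals for the level in these zones overlapped in the duodenum. Krt222 had 12, 33 and 48 UMIs in zone 1 and 1, 0 and 6 in zone 5. The laminin chain gene Lama5 (1.61 ± 0.59) was called higher. It had at most 0.0194 UMIs per 10000 at the tip, had none in the ileum, and lost its call in DESeq2 (adjusted p = 0.076) and without TMM (0.091 in edgeR).

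Of 11 genes for laminin receptors and the hemidesmosome, the anchor between keratin and basement membrane, 9 were tested, 6 were higher and 2 lower (median 0.70), against 4 higher and 3 lower without TMM (median 0.13). Plec, which encodes plectin, gave 2.73 ± 0.24, the integrin genes Itga6 and Itgb4 gave 1.98 ± 0.21 and 1.27 ± 0.14, and Dst gave 0.90 ± 0.16. The ileal level of Dst hardly differed, at 0.704 in zone 1 and 0.717 in zone 5, with overlapping 95% intervals. The dystroglycan gene Dag1 was lower (-0.52 ± 0.16). Itgb1 gave 0.22 with an adjusted p of 0.27 in edgeR, and -0.37 without TMM. Of 12 desmosome and keratin-binding genes, which tie keratin filaments to cell contacts, 11 were tested, 7 were higher and 2 lower (median 1.70), against 6 and 2 without TMM. Dsp, which encodes desmoplakin, gave 2.63 ± 0.26, Pkp3 2.24 ± 0.23, Dsc2 2.23 ± 0.24, Jup 1.82 ± 0.18 and Dsg2 1.70 ± 0.16, while Eppk1 was lower (-2.30 ± 0.14). None of the 3 other Gprc5 genes had enough UMIs. Of 9 genes of the retinoic acid response, 4 were tested. Rxra (1.05 ± 0.12) and Rara (0.64 ± 0.14) were higher and Dhrs3 (-0.54 ± 0.19) and Rarg (-1.65 ± 0.60) lower. Only Rxra of these kept its call under the alternatives named here. Its ileal level hardly differed, however, at 0.484 in zone 1 and 0.493 in zone 5, with overlapping 95% intervals. Rara gave 0.07 with no call without TMM (adjusted p = 0.69 in edgeR) and -0.19 when cells were thinned to 1500 UMIs, and its jejunal level was 0.268 in zone 1 and 0.238 in zone 5. Rarg, with at most 34 UMIs in a zone, lost its call in DESeq2 (adjusted p = 0.087), and Dhrs3 lost its call without the duodenum (-0.21, adjusted p = 0.25 in edgeR). Of 12 immediate early and heat shock genes 7 were higher and 0 lower (median 1.01), but 6 were higher and 4 lower without TMM.

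**Figure D5:**
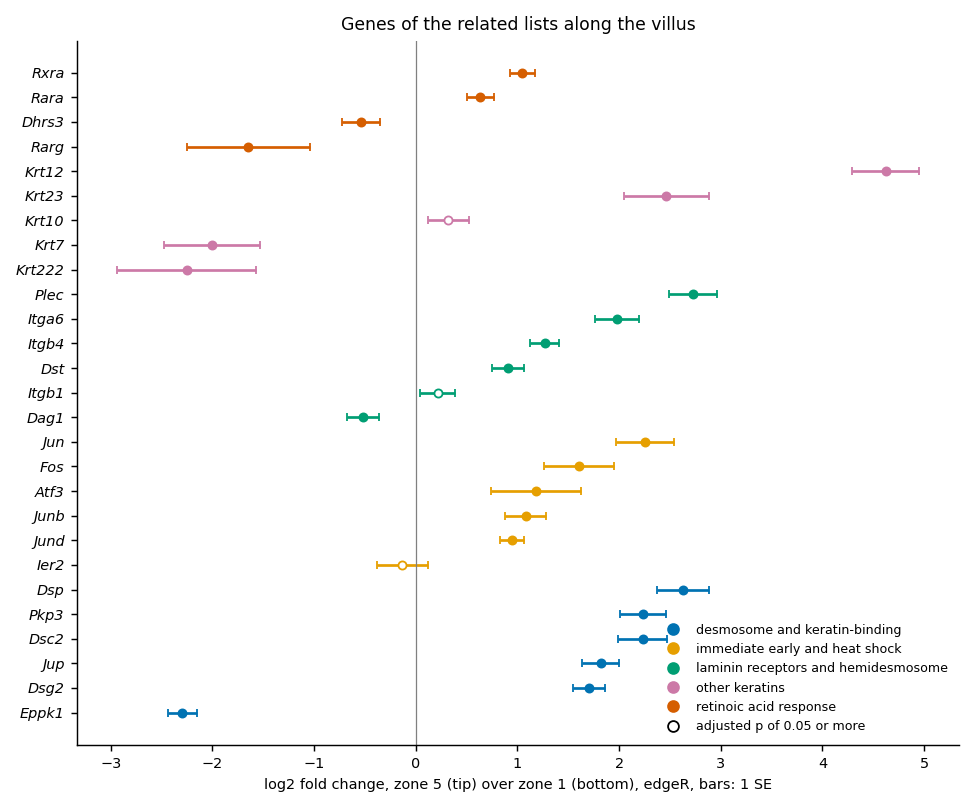
Log2 fold change of zone 5 over zone 1 (edgeR, bars 1 SE) for named genes of the related lists, with open points where the adjusted p is 0.05 or more. Krt12 (4.62), Plec (2.73) and Dsp (2.63) lie far to the right, and Eppk1 (-2.30) to the left.

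The same lists were counted for each class against enterocytes, over 12625 genes. In tuft cells 23.9% of all genes were called higher and 26.8% lower. Of 7 other keratins tested, 4 were higher and 1 lower, with Krt23 at 7.16 ± 0.64, Krt222 at 4.35 ± 0.52, Krt10 at 1.18 ± 0.30 and Krt12 at -3.99 ± 0.72 (log2 fold change, SE). Eppk1, which encodes epiplakin, a binder of keratin filaments, was higher by 5.49 ± 0.30, and the Gprc5 relative Gprc5c by 10.41 ± 0.42. Plec was lower by 2.32 on this scale, as the log2 fold change was -2.32 ± 0.21. In goblet cells, where 19.3% of genes were called higher and 24.3% lower, 3 of the 7 keratins were higher and 1 lower, with Krt7 at 5.68 ± 0.70, Krt23 at 4.95 ± 0.60 and Krt12 at -2.28 ± 0.45. Krt79 (6.74 ± 1.26) lost its call in DESeq2.

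In EECs (29.7% of genes called higher, 29.2% lower) 1 of the 7 keratins was higher and 1 lower. Krt7 was higher by 6.41 ± 0.73 and reached 7.95, 4.80 and 6.81 UMIs per 10000 in the duodenum, jejunum and ileum, against 0.00854, 0.0123 and 0.232 in enterocytes. Gprc5c (7.0 ± 0.48) and the laminin chain Lamc1 (4.99 ± 0.55) were also higher in EECs, and Itgb4 (-3.72 ± 0.25) and Dsc2 (-3.54 ± 0.32) lower. Lamc1 was rare, with 11, 1 and 35 UMIs in EECs and 10, 10 and 15 in enterocytes. In ISC/proliferating cells (33.0% higher, 34.0% lower) 2 of the 7 keratins were higher, Krt7 (3.35 ± 0.65) and Krt23 (1.81 ± 0.68), and 2 lower, Krt12 (-5.86 ± 0.74) and Krt222 (-3.16 ± 1.13). Plec was lower there (-4.00 ± 0.23). Without TMM the share of higher calls among all calls went from 47.1% to 71.5% in tuft cells, from 50.4% to 77.5% in EECs and from 49.3% to 70.9% in ISC/proliferating cells. Under this scaling the named genes of this and the preceding paragraph kept their direction, but Krt12 in EECs and Krt222 in ISC/proliferating cells lost their calls (adjusted p = 0.053 and 0.10 in edgeR).

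The lists of receptor and desmosome genes were counted under both scalings as well. Of 10 receptor and hemidesmosome genes tested in tuft cells, 2 were higher and 7 lower, against 3 and 4 without TMM. In EECs the counts were 2 and 6 against 3 and 4, and in ISC/proliferating cells 2 and 6 against 4 and 4. Goblet cells gave 1 higher and 3 lower under both scalings. Of 12 desmosome and keratin-binding genes, 2 were higher and 7 lower in tuft cells, in EECs and in ISC/proliferating cells, and 2 higher and 6 lower in goblet cells. Without TMM the lower ones were 4, 6, 7 and 6 in this order, with 3 higher in tuft cells, 5 in EECs and 2 in goblet cells. Over all genes without TMM, 4768 were higher and 1904 lower in tuft cells, and 6225 and 1805 in EECs. In ISC/proliferating cells these were 6050 and 2480, and in goblet cells 2451 and 2850.

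One comparison did not rest on the values by which the 7 genes were picked. Zone 3 cells of each library were divided at the median mitochondrial share, a sign of cell damage, and summed UMIs were tested by edgeR with the library as a block. The median share was 35.0%, 34.6% and 18.2% in the upper group and 24.2%, 24.2% and 10.1% in the lower one, at similar zone scores. Of 9692 genes tested, 0.619% were called higher and 2.97% lower at a high mitochondrial share. None of the 7 genes was called in edgeR, at adjusted p-values between 0.31 and 0.90, and none had an unadjusted p under 0.05. The log2 fold change was -0.19 ± 0.09 for Krt20, -0.16 ± 0.09 for Krt8, -0.08 ± 0.12 for Krt18 and -0.08 ± 0.13 for Gprc5a. It was 0.11 ± 0.10 for Krt19, 0.11 ± 0.13 for Lama3 and 0.04 ± 0.11 for Lamb3. A p-value above the threshold does not show that the levels were equal. Without TMM the share of higher calls among all calls went from 17.2% to 4.5%.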

How the data were processed

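Single-cell RNA-seq was performed with the 10x Chromium 3′ kit v3 on 3 libraries. The deposited counts are whole UMI counts per gene and cell barcode, made by the authors with Cell Ranger 3.0.2, and the submitters' processing notes name GRCm38 and mm10. The libraries held 98518847, 87656078 and 78074516 UMIs (duodenum, jejunum, ileum). All 3 were used, and 0 columns were left out. Their numbers name libraries and pair nothing.

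A barcode was kept if its UMIs numbered 800 to 50000, its genes 200 to 6000, and no more than 40% of UMIs were mitochondrial. The 7 genes and the related lists were chosen with earlier results of these data known. Cells were integrated and clustered in Seurat 5.3.0 (2000 variable genes without the 7 genes, 30 principal components, resolution 0.8, mixed clusters again at 0.5). A cluster was named when at least 3 markers of a list were found in 10% of its cells. No doublet caller was run, and the 5% of cells with most UMIs were left out as an alternative. At most 6 genes per related list were named, those with most UMIs. Some items that these rules name are not reported here. Of the 31053 genes, 30934 (99.6%) were matched to GENCODE M21.

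Levels carry exact 95% Poisson intervals, and shares exact ones, which cover counting error between molecules only. An absent gene was bounded by 3 counts. Likeness used Pearson's r of log2(level + 0.1). Sums of at least 10 cells were tested in edgeR 4.0.16 (TMM, filterByExpr, quasi-likelihood, library as block, Benjamini-Hochberg adjustment), with DESeq2 1.42.0 as an alternative. All 7 genes passed the filter on low counts in every comparison. The 3 libraries are the only repeats and stand for segments. With the library as a block, p-values weigh a difference against how unevenly groups differed from library to library, over all groups of a fit. Spread between mice was not measured, as their cells were pooled. On simulated counts of the 11100 genes between tip and bottom, 20% of 1.5-fold, 56.4% of 2-fold and 98.5% of 4-fold changes were recovered. The simulation left 10900 genes unchanged and gave libraries no differences other than depth. In the data 34.0% of genes were called higher and 37.0% lower, so these rates need not hold there. Other scalings, filters, zone scores, clusterings and depths were tried, and each library was left out in turn.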

Additional observations from a re-analysis of the deposited data

Results flagged for a closer look

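Krt8 differed in direction between segments when ISC/proliferating cells were set against enterocytes. The log2 ratio was 0.12 for the duodenum, against -0.70 for the jejunum and -0.45 for the ileum. This difference between segments was not tested, as each segment has 1 library.

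Krt18 was higher at the tip than at the bottom of the villus by a log2 ratio of 1.42 in the duodenum and 2.77 in the jejunum, but gave -0.47 in the ileum, and this difference was not tested either. Relative to the median gene the ileal value was 0.33.

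The 7 genes were also found in barcodes that had been left out for a mitochondrial share over 40%. Per 10000 non-mitochondrial UMIs of these barcodes, Krt8 had 28.5, Krt18 1.34, Krt19 3.74, Krt20 17.6, Lama3 0.543, Lamb3 0.662 and Gprc5a 0.382. These barcodes were not divided by class, and their cell types were not analysed here.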

How the results depend on the processing

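For the 7 genes, 77 of 91 values of tip over bottom under the alternatives moved by less than 1 SD over libraries, as did 152 of 174 values of a class over enterocytes. The cause of the others was not tested. Scaling to the median gene and leaving out the cluster led by Marcksl1 were chosen after seeing the data. Tip over bottom (log2), Krt19 was -5.13 with at most 20% mitochondrial UMIs, -3.84 without the 5% deepest cells, -2.56 with libraries merged without integration and -3.88 relative to the median gene. Krt20 was 2.26 with 3 zones and 3.29 relative to the median gene. Lama3 was 4.23 with the zone score as a ratio, 4.03 with 3 zones, 6.04 with at most 20% mitochondrial UMIs, 4.53 without the deepest cells, 4.45 merged and 5.43 relative to the median gene. Lamb3 was 3.66 with 3 zones and 3.69 in cells thinned to 1500 UMIs.

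Over enterocytes (log2) with the T cell level subtracted, Krt18 was 4.10 in ISC/proliferating cells, 5.83 in goblet cells, 9.10 in tuft cells and 4.64 in EECs, and Krt20 -1.31 in goblet cells and -2.84 in EECs. Relative to the median gene, ISC/proliferating cells gave -0.85 for Krt8 and 2.33 for Krt18, tuft cells 7.33 for Krt18 and -3.49 for Krt20, and EECs -1.06 for Krt8 and -1.92 for Krt20. With mitochondrial UMIs left out, goblet cells gave 0.027 for Krt8, 4.21 for Krt18 and -1.13 for Krt20. Krt20 in EECs was -1.73 with at most 20% mitochondrial UMIs. Krt19 in tuft cells (0.02) turned to -0.85 with at most 20% mitochondrial UMIs, -0.10 with mitochondrial UMIs left out, -0.11 with T cells subtracted, -0.17 without the deepest cells, -0.37 relative to the median gene and, over left-out libraries, lay between -0.21 (without the jejunum) and 0.23.

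Of 82 counts of called genes under the alternatives, 73 stayed within 1.5 times. Between tip and bottom 7884 genes were called, 5148 without the library block and 4511 in thinned cells. For goblet cells (5511), leaving out a library gave 3479 (without the jejunum) to 4962. By mitochondrial share (348), the count was 756 without TMM, 606 without the filter, 136 with DESeq2, 25 with at most 20% mitochondrial UMIs, 28 without the duodenum and 170 without the jejunum, with a range of 28 to 343 over left-out libraries.

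By mitochondrial share, where none of the 7 genes was called, Krt18 turned to 0.016 without the duodenum and 0.017 without the ileum (range over left-out libraries -0.32 to 0.017). Krt19 turned to -0.13 with at most 20% mitochondrial UMIs and -0.0100 without the duodenum (range -0.0100 to 0.20). Lama3 turned to -0.35 at that limit and -0.064 without the jejunum (range -0.064 to 0.45), and Lamb3 to -0.061 without TMM, -0.11 at that limit and -0.099 without the ileum (range -0.099 to 0.15). Between tip and bottom, Krt7 turned to 0.053 (merged), Krt10 to -0.26 and Itgb1 to -0.37 (without TMM), Rara to -0.19 (thinned), and Ier2 (-0.13) to 0.62 (merged), 0.46 (without the deepest cells) and 0.044 (without the ileum; range -0.24 to 0.044). In all, 436 of 482 values of list genes kept direction and call.

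Comparisons within libraries hold the library as a block. No paired analysis was possible because, between segments, each has 1 library and the numbers only name them. Each library left out leaves 2. Few UMIs limit low levels such as Gprc5a at the duodenal villus bottom (6 UMIs), and few cells limit rare classes such as the 24 EECs of the jejunum.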
